A study of Mus musculus with 7 samples.

Results

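Wide H3K27me3 domains of newborn mouse epidermal progenitor cells were followed one by one for how much of each was still called in cells without Ring1a and Ring1b. A control peak counted as a wide domain when it measured 8000 bp or more, and wide domains were taken when they shared at least 1 bp with a peak of the Ring1a/b double-knockout (2KO) list. This applied to 543 of the 812 wide domains (66.9%, 95% Wilson interval 63.6 to 70.0), or 15.0% of the 3631 control peaks. Over all control peaks 47.4% met a 2KO peak, and over the 2819 peaks narrower than 8000 bp 41.8% did. Because the overlap itself chose the 543 domains, their covered shares, pieces and parts describe them and test nothing.

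The cells were basal progenitors of the interfollicular epidermis from the back skin of mice at postnatal day 0, sorted as EpCAM positive, Sca1 positive and high in α6-integrin. Cells of the genotype Ring1a/b 2KO were set against cells labelled control. Each genotype had 2 labelled H3K27me3 immunoprecipitation libraries and 1 list of called peaks, with 2340 peaks in 2KO cells and 3631 in control cells. The titles of the 2KO libraries name H3K27me1, whereas their antibody field and the list name H3K27me3, and the list was read as H3K27me3. The labels give neither the strain nor how and in which cells the genes were deleted. Since each genotype has a single list, neither an error between replicates nor a test of 2KO against control can be given. Intervals are 95% intervals over domains, gaps or gene starts and cover counting error only. Sequencing depth is unknown, and a stretch without a call can still carry the mark. Fewer cells with the mark and less mark per cell cannot be told apart in such lists.

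H3K27me3 is laid down by Polycomb repressive complex 2, and the complex gathers at CpG-rich gene starts that are not transcribed. Ring1a and Ring1b are the ubiquitin ligase subunits of Polycomb repressive complex 1, which binds this mark and ubiquitinates histone H2A, and the variant forms of complex 1 in turn help to bring in complex 2. Broad domains of the mark typically cover genes of developmental transcription factors that are silent in the tissue. In skin, Polycomb complexes are known to keep genes of other lineages, such as those of Merkel cells, silent in epidermal progenitors.

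The sequences that frame the results are promoters whose starts lay in long gaps between 2KO calls and promoters whose starts lay under such calls. Shown are the 120 bases before the annotated start, 5′ to 3′ on the strand of the gene, from RefSeq on GRCm38.p6 (mm10), with each CpG in capitals. The CpG count refers to the whole promoter window of 300 bases, 250 before the start and 50 from it. The starts of Zic4, Zic1, Nkx2-3 and Sox2 lay in gaps between separate 2KO peaks within 1 control domain. They were taken from the longest gaps outside Hox domains that held a start (15.9 kb for Zic4 and Zic1, 11.4 kb for the others). The median of all gaps was 1.71 kb.
Zic4, chr9:91368852-91368971, + strand, 8 CpG in the promoter: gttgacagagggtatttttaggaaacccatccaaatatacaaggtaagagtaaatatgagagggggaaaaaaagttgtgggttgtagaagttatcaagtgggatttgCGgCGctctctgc
Zic1, chr9:91365769-91365888, - strand, 31 CpG in the promoter: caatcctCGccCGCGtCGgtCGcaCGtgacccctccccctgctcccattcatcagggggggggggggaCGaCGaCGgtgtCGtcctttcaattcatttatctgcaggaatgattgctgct
Nkx2-3, chr19:43612205-43612324, + strand, 15 CpG in the promoter: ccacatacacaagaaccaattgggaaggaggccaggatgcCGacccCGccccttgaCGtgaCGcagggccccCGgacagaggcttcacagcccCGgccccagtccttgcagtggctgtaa
Sox2, chr3:34649875-34649994, + strand, 27 CpG in the promoter: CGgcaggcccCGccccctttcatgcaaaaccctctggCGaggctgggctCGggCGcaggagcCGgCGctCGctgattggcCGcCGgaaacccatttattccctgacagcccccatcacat
The following starts lay under 2KO peaks, in the widest domains at gene ends that were covered to 95% or more and held a start.
Foxa2, chr2:148046970-148047089, - strand, 12 CpG in the promoter: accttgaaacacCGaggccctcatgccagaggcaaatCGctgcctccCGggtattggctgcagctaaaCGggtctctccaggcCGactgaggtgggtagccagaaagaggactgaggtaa
Nkx2-1, chr12:56536909-56537028, - strand, 12 CpG in the promoter: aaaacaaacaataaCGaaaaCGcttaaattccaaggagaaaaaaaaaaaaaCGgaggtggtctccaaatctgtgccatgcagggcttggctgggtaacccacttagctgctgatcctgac
Uncx, chr5:139543778-139543897, + strand, 26 CpG in the promoter: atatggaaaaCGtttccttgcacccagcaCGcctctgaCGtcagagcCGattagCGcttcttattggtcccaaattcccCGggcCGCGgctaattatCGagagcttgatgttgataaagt
Onecut1, chr9:74861801-74861920, + strand, 38 CpG in the promoter: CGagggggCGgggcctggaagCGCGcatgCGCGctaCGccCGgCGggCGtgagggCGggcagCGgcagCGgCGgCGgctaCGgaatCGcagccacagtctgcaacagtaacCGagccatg
The counts of CpG in these 8 promoters overlap between the sets, since the low Zic4 promoter had a start in a gap and the CpG-dense Onecut1 promoter had a start under a peak. Foxa2 has 3 annotated starts here, and the other 2, with 23 and 13 CpG, lay in a gap of 1.04 kb.

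Some of the domains lay over miRNA genes, and these fell on both sides. Mature miRNAs are shown 5′ to 3′ from RefSeq, with the seed (bases 2 to 8), which pairs with target transcripts, in capitals.
miR-9-5p (Mir9-1, Mir9-2 and Mir9-3, all under 2KO peaks): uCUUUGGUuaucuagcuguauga
miR-129-5p (Mir129-2, under a 2KO peak): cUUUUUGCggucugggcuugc
miR-196a-5p (Mir196a-1 in HoxB and Mir196a-2 in HoxC, neither under a 2KO peak): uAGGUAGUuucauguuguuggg
miR-196b-5p (Mir196b in HoxA, not under a 2KO peak): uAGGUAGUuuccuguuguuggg
miR-10b-5p (Mir10b in HoxD, not under a 2KO peak): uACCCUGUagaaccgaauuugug
miR-132-3p (Mir132, not under a 2KO peak): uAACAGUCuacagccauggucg
miR-212-3p (Mir212, not under a 2KO peak): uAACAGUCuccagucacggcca
miR-196a and miR-196b share their seed, as do miR-132 and miR-212. Of 26 annotated hairpins on 16 domains, 10 lay under 2KO peaks (38.5%, 22.4 to 57.5), while 73.1% of the bases of all 543 domains were covered. Hairpins on 1 domain share its peaks, and some overlap on opposite strands. They are not independent, and the interval does not allow for this. The 3 genes of miR-9, a miRNA of neural development, lay on domains of 31.4, 38.2 and 21.9 kb that reached no protein-coding gene and were covered to 100, 95.9 and 97.1%. Each miR-196 gene and Mir10b lay in a Hox cluster at a position without a 2KO call. Mir132 and Mir212 shared a 9.39 kb domain at Hic1, which encodes a zinc finger repressor, and 24.5% of that domain was covered. On chromosome X, the 6 clustered hairpins from Mir106a to Mir363 stood on a 13.8 kb domain that met 2 separate 2KO peaks and was covered to 46.9%, and none of them was under a peak.

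The typical domain that met a 2KO peak was kept over most of its length. The 269 wide domains that met none had no cover and are not counted in these shares. The share of a domain under 2KO peaks had a median of 86.1% (81.7 to 89.1), with quartiles of 56.4 and 98.5% and a range of 4.82 to 100%. By bases, 6.94 of 9.49 Mb were covered (73.1%). In 304 domains 80% or more was covered (56.0%, 51.8 to 60.1), against 73.6% of all control peaks that met a 2KO peak and 81.7% of the narrow ones. A further 225 domains were covered to between 20 and 80% (41.4%). Only 14 were covered to under 20% (2.58%, 1.54 to 4.28), against 0.93% of all met control peaks. A 2KO peak of a given length covers a larger share of a narrower control peak. How far width sets these differences was not tested. Complete cover was found in 111 domains (20.4%), and cover under 50% in 113 (20.8%).

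The uncovered 2.55 Mb were unevenly spread. The 55 domains that lost most bases held 47.2% of all uncovered bases, and the 10 that lost most held 18.1%. The 5 met domains at Hox genes, of 7 wide ones, kept 30.8% of their bases, and none of them reached 80% cover. The homeodomain proteins of Hox genes give positions along the body axis. Hand2, a bHLH gene of heart and limb, stood at the other end: of the 10 widest domains, its 56.9 kb domain and the 54.0 kb domain of the kidney and eye gene Pax2 (81.0% covered) were the ones with 80% or more. Uncx, a homeobox gene of somites, had a 36.9 kb domain wholly under a 42.5 kb 2KO peak.

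**Figure D1:**
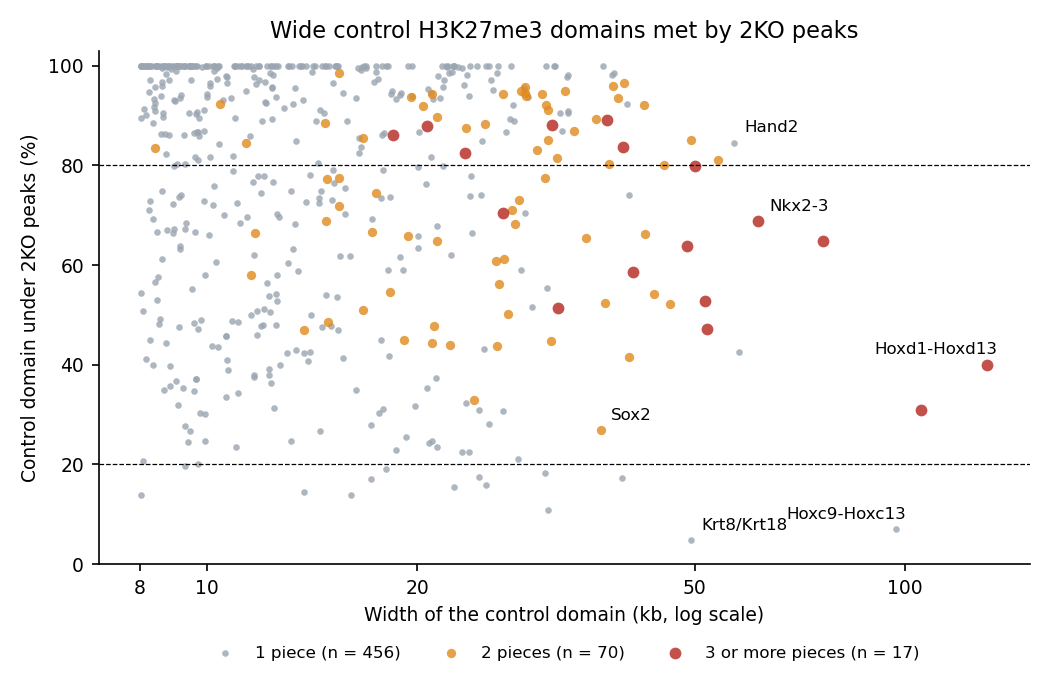
Each point is 1 of the 543 wide control domains met by 2KO peaks, by its width in kb (log axis) and the percentage of its bases under 2KO peaks; color and size give the number of separate 2KO peaks (pieces), and dashed lines mark 80 and 20%. Points with 3 or more pieces sit among the wider domains, while 1-piece domains fill the range from 4.82 to 100%.

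Of the domains left with under 20% cover, the 3 widest lay at Hoxc9 to Hoxc13 (97.0 kb), at Krt8 and Krt18 (49.4 kb) and at Hoxb7 to Hoxb9 (39.3 kb). The next were Dmrt1 and Dmrt3, genes of gonad and neuron differentiation (30.8 kb, 10.9% covered), and Sp8, a limb and forebrain factor (30.5 kb, 18.2%). Barx1, a homeobox gene of stomach and tooth mesenchyme, kept 15.9% of 25.1 kb, and a 24.5 kb domain inside Runx3, a Runt factor of neurons and T cells, kept 17.4%. Ntn1, which encodes the axon guidance ligand netrin 1, kept 15.5% of 22.6 kb, Six2, a factor of kidney progenitors, 17.1% of 17.2 kb, and the mesenchymal homeobox gene Prrx1 13.8% of 16.1 kb. In 13 of these 14 domains the remaining call was an island of between 1.83 and 6.81 kb with uncovered stretches on both sides. The exception was an 8.05 kb domain near Barhl2 that a 39.2 kb 2KO peak of the neighbouring Barhl2 domain reached by 1.12 kb.

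The number of 2KO pieces followed width. Of the 543 domains, 456 met 1 piece, 70 met 2, 13 met 3, 3 met 4 and 1 met 6. At least 2 pieces were thus found in 87 domains (16.0%, 13.2 to 19.3), against 5.4% of all met control peaks and 0.509% of the narrow ones. With peaks within 3 kb of each other merged in both lists, the share with 2 or more pieces was 5.42%. Domains with 2 or more pieces had a median width of 28.0 kb and a median cover of 77.3%, and domains with 1 piece 12.1 kb and 89.1%. By class of width, 2 or more pieces were found in 0.645% of domains from 8 to 10 kb, 5.77% from 10 to 15 kb, 15.8% from 15 to 20 kb, 28.1% from 20 to 30 kb and 63.3% (38 of 60) from 30 kb on. A wider domain has more room for a break, and how far this sets the order was not tested. The median cover showed no such order, with 90.5, 83.1, 80.8, 85.8 and 81.3% in these classes.

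The HoxD domain was cut into 6 pieces, more than any other. Domains with 4 pieces included those of Nkx2-3 and of Fezf1 with Cadps2. In the 61.7 kb domain of Nkx2-3, a homeobox gene of gut and spleen, pieces of 7.43, 13.7, 13.9 and 7.38 kb all lay in the flanks, and the gene itself stood in a gap of 11.4 kb. Fezf1, a forebrain zinc finger gene, and its neighbour Cadps2 had 83.7% of 39.5 kb covered, with gaps of at most 2.55 kb.

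The 110 gaps between neighbouring pieces were mostly short, with a median of 1.71 kb (quartiles 1.27 and 3.19) and a range of 0.148 to 42.4 kb. Of these, 80 were under 3 kb and 7 over 10 kb. Gene ends lay in 55 of the 110 gaps (50%, 40.8 to 59.2). Among the longer gaps, those at Hoxd10 to Hoxd4 (42.4 kb), Zic1 and Zic4 (15.9 kb), Nkx2-3, Sox2 (11.4 kb), Hoxb13 (10.4 kb), Nkx2-2 (7.98 kb), Nr2f1 (7.21 kb), Tbr1 (6.73 kb) and Twist1 (5.62 kb) held gene ends. A 29.5 kb gap between Hoxa13 and Evx1, a 7.42 kb gap beside Pax2, a second gap of 5.83 kb in the Zic1 domain and a 5.57 kb gap near Fcgr1 held none. Genes other than those of the widest or most divided domains are named here for their gaps, after the values were seen.

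Annotated starts were denser in the gaps than in the domains as a whole. Starts with a promoter in the RefSeq table numbered 12.3 per 100 kb of gap, against 4.30 per 100 kb of domain, and 39 of the 110 gaps held one (35.5%, 27.1 to 44.7). The 46 starts in gaps belonged to 43 genes and had a median of 25 CpG, and 30 of the 46 lay in gaps under 3 kb. Short gaps of this kind stood over the starts of En1, a homeobox gene of the midbrain and ventral limb ectoderm (1.41 kb), Mnx1 of motor neurons (1.36 kb), Isl1, a LIM homeobox gene of motor neurons and Merkel cells (1.19 kb), Foxd2 (1.13 kb) and Hmx1 (1.43 kb). Neural genes with such gaps also included Pou3f2 (0.961 kb), Sox1 (1.68 kb) and Gbx2 (1.69 kb).

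The reverse comparison did not show this. Of 619 2KO peaks of 8000 bp or more, 597 met a control peak (96.4%), and 38 of these met 2 or more control pieces (6.37%, 4.67 to 8.62). The 42 gaps between control pieces inside wide 2KO peaks were of similar length, with a median of 1.60 kb. None of the 42 held a gene end (0%, up to 8.38%), and 1 held a start, of Agap2 (2.38%, 0.422 to 12.3). Starts numbered 1.07 per 100 kb in these gaps and 4.42 per 100 kb in the wide 2KO peaks.

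**Figure D2:**
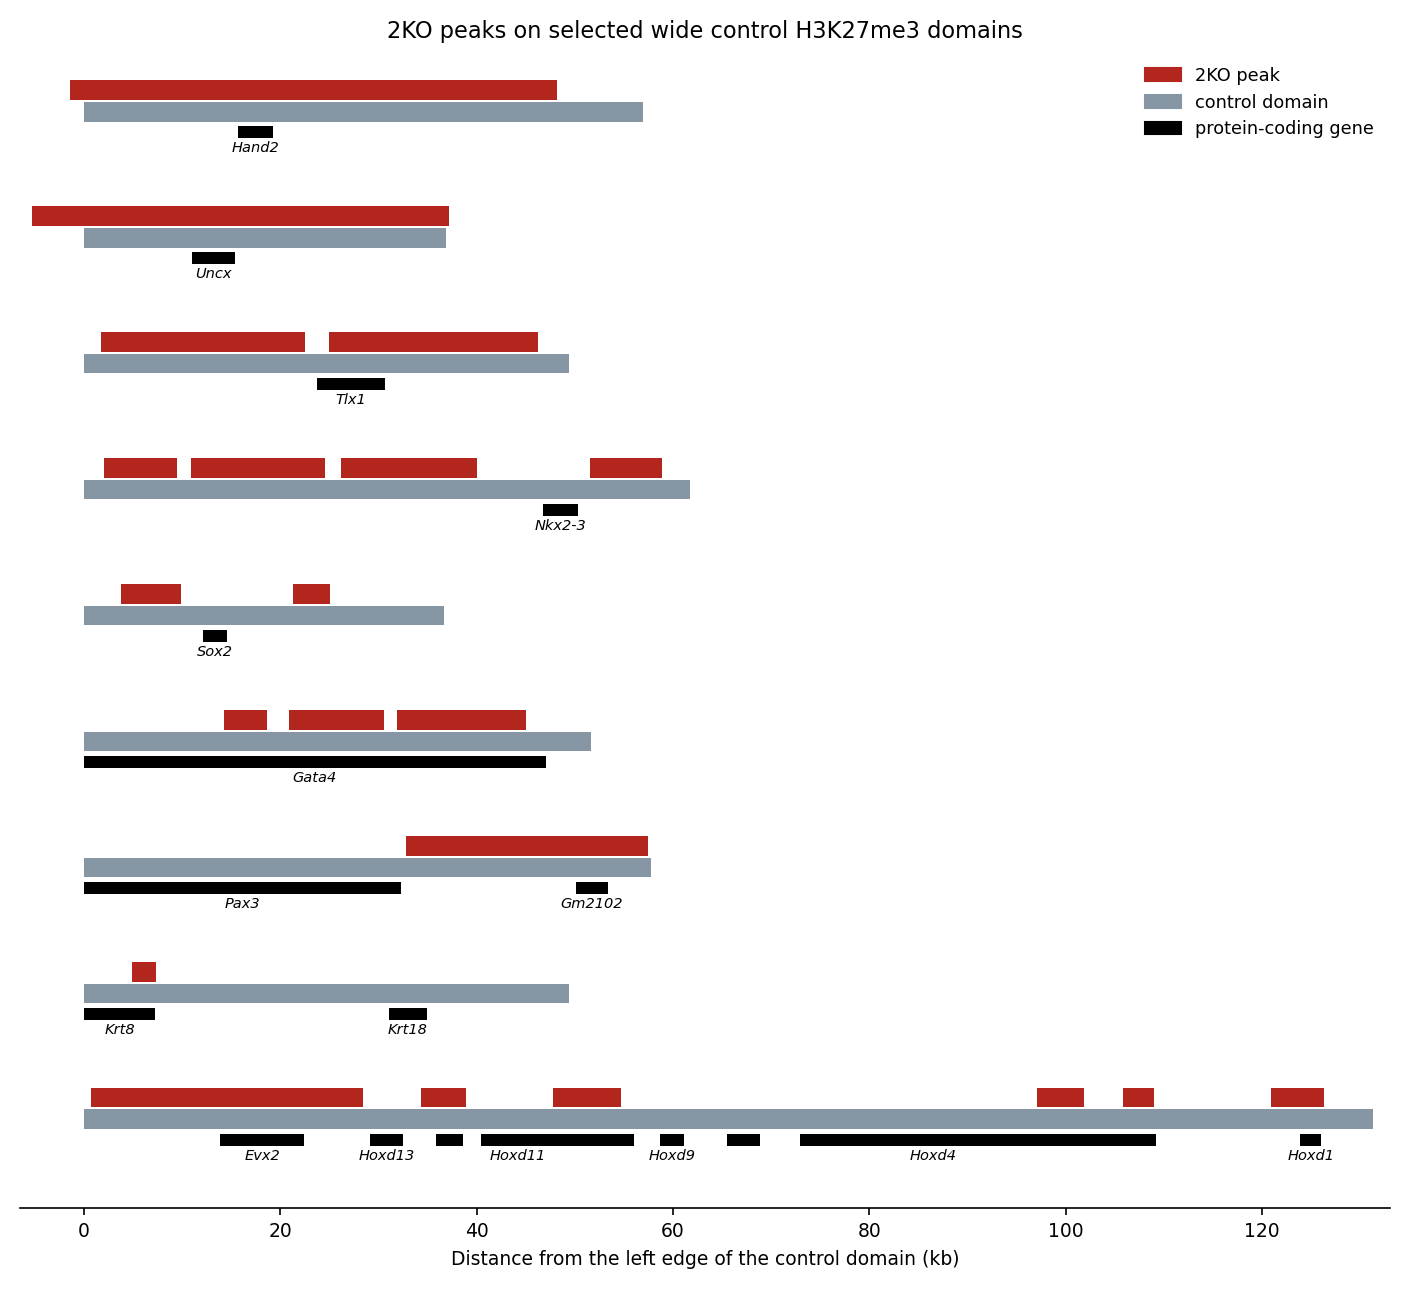
For selected wide control domains, bars give 2KO peaks (red, above), the control domain (grey) and protein-coding genes cut to the domain (black, below), by distance in kb from the left edge of the domain. Hand2 and Uncx lie under 1 long 2KO peak, Nkx2-3 and Sox2 lie in gaps of 11.4 kb, Pax3 is uncovered over its gene, and HoxD holds 6 pieces.

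Over all domains, gene starts with a promoter in the table numbered 408, from 348 genes on 313 domains, and 293 of them lay under a 2KO peak (71.8%, 67.3 to 76.0). A 2KO peak came within 1 kb of 368 starts (90.2%, 86.9 to 92.7). In domains met by 1 piece 258 of 320 starts were covered (80.6%, 75.9 to 84.6), and in domains met by 2 or more pieces 35 of 88 (39.8%, 30.2 to 50.2). Of the 115 uncovered starts, 46 lay between pieces and 69 at an edge.

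Promoters at uncovered starts were richer in CpG. The count in 300 bases had a median of 23 (20 to 26) at the 115 uncovered starts and 18 (16 to 19) at the 293 covered ones, beside 13 over all 21045 coding promoters of the table. Without the Hox domains the medians were 24 and 18. GC content was 64.7% at uncovered and 61.3% at covered starts. A GC box, searched as GGGCGG or CCGCCC so that both strands count, was found in 70.4% (61.5 to 78.0) of uncovered and 57.0% (51.3 to 62.5) of covered starts, against 46.7% of all coding promoters. By class of CpG count, 2KO peaks covered 80.6% of starts with 0 to 5 CpG (25 of 31), 87.0% with 6 to 10 (60 of 69), 67.9% with 11 to 15, 76.5% with 16 to 20, 68.8% with 21 to 30 (77 of 112) and 56.9% with 31 or more (41 of 72, 45.4 to 67.7). Over all wide domains, met or not, the shares in these classes were 59.5, 66.7, 59.4, 65.0, 57.5 and 39.4%, so the order was less clear there below 31 CpG. Starts on 1 domain share its peaks and are not independent.

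At CpG-rich promoters, cover was lower at the start than at positions near it. Among the 184 starts with over 20 CpG, 64.1% (57.0 to 70.7) were covered at the start, 85.1% (79.2 to 89.5) of the positions 1 kb before it and 77.6% (71.0 to 83.0) of those 1.5 kb after it. Among the 224 starts with 20 CpG or fewer the same values were 78.1% (72.3 to 83.0), 82.5 and 82.4%. Farther along the gene cover was low again. At 5 kb after the start it was 67.4% (59.3 to 74.5) for starts with over 20 CpG and 75.4% (68.6 to 81.1) for the others, and both intervals overlap those at the start. In the reverse comparison 97.8% of 367 starts on wide 2KO peaks lay under a control peak, against 97.2% of the positions 1 kb before them. In 20 domains that held both covered and uncovered starts, the uncovered ones had the higher mean CpG count in 14 (70%, 48.1 to 85.5). They had the lower one in 6 (30%, 14.5 to 51.9), and these intervals overlap.

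**Figure D3:**
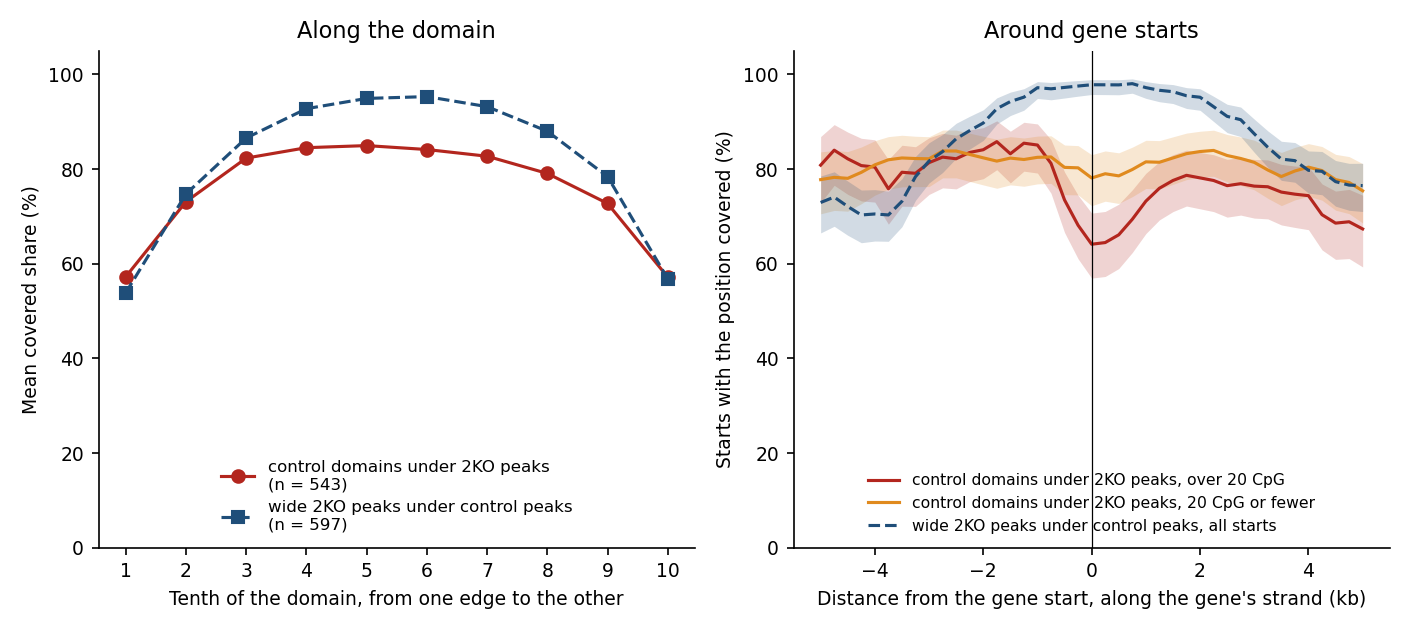
Left, mean percentage covered in 10 equal bins from one edge to the other, for wide control domains under 2KO peaks (red) and for wide 2KO peaks under control peaks (blue, dashed). Right, percentage of gene starts covered at each distance in kb from the start, with 95% Wilson bands, for starts with over 20 CpG (red, 64.1% at 0) and with 20 or fewer (orange, 78.1%) in control domains and for all starts in wide 2KO peaks (blue, dashed, 97.8%).

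Where 1 piece met 1 control domain and no other control peak, 2KO calls more often stopped short of the domain edges than reached past them. The 429 domains met by 1 piece that met no other control peak had 858 edges, of which 510 lay inside the control edge in 2KO cells (59.4%, 56.1 to 62.7) and 348 outside it. The median shift was -0.297 kb, with outward as positive, and 245 edges lay within 0.5 kb of the control edge. Inward shifts over 2 kb were found at 238 edges (27.7%) and outward ones at 74 (8.62%). Both edges lay inward in 177 domains and outward in 96. The 2KO peak was narrower than the control domain in 271 of the 429 (63.2%), by a median of -1.22 kb (-2.02 to -0.789, 2KO minus control) over all 429. These domains were chosen for their width in the control list, and those whose piece met another control peak were left out. The second choice drops some pieces that reached far outside, such as those at Dmbx1 and Onecut3 (23.7 and 22.2 kb outside, much of it on other control peaks). In the reverse choice, 364 of 597 wide 2KO peaks (61.0%) were covered to 80% or more by control peaks, beside 56.0% of the control domains by 2KO peaks.

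Pax3, a paired-box gene of neural crest and muscle, had 32.8 kb uncovered at one edge, on the side of the gene. Its 24.6 kb 2KO peak covered 98.3% of the flank in the 57.8 kb domain. It covered 74.3% of the bases near gene ends and 4.01% of gene bodies, with Pax3 and a second gene, Gm2102, pooled. Counted from the left edge of the domain, the peak began at 32.8 kb, past the end of Pax3 at 32.3 kb. It ran over all of Gm2102 (50.1 to 53.4 kb), and the covered body bases were those of Gm2102. Pax6 and Pax9 were likewise covered over their flanks (94.5 and 91.6%) more than inside genes (17.8 and 33.6%). In Pax2 the order was the other way, with all bases near the gene end covered, 87.3% of the body and 75.1% of the flank.

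Along the domain, mean cover was 57.3% in the first and 57.2% in the last of 10 equal bins and 85.0% in the fifth. In the 239 domains covered to under 80%, these values were 27.2, 24.2 and 67.7%. In the 597 wide 2KO peaks under control peaks the edge bins had 53.9 and 56.8% and the sixth bin 95.3%. Low edges were thus common to both directions, and the middle was lower in the control domains.

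Outside the domains, 324 of the 543 had a 2KO piece that reached past an edge, 56 of them by 5 kb or more in all. These counts include bases that lie on other control peaks, and bases outside all control peaks were not counted apart. In 27 cases a single 2KO peak joined separate control peaks, over control gaps of 0.731 to 8.39 kb (median 1.56), and 32 domains took part. The longest such gap lay near Xkr6, where a 28.7 kb 2KO peak joined 2 control peaks. A 52.7 kb 2KO peak joined the wide domain of Dmbx1, a homeobox gene of the midbrain, to a second one toward Faah over 0.88 kb. Of this 2KO peak, 51.8 kb lay on control peaks. A 41.6 kb peak at Onecut3, a factor of neurons and endoderm, ran over 3 control peaks.

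At the 8000 bp minimum, gene ends, bodies and flanks were kept to similar shares when all 543 domains were pooled. Bases at gene ends, up to 1 kb to either side of them, were covered to 74.5%, other bases inside genes to 70.1% and bases outside genes to 74.8%. Without the domains at Hox genes, these shares were 78.2, 71.1 and 77.1%. In the 304 domains with 80% cover or more the shares were 93.4, 94.9 and 94.0%, and in the 239 others 52.0, 44.8 and 52.8%. In domains with 2 or more pieces, Hox domains included, they were 54.4% at gene ends, 65.6% in bodies and 74.9% in flanks. Within the 183 less covered domains with a gene end, the end was kept more than the rest in 102 (55.7%, 48.5 to 62.7) and less in 81, with a median difference of 5.70 percentage points (-1.89 to 19.8) whose interval includes 0. Bodies were kept more than flanks in 74 of 153 and less in 79.

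Individual domains differed widely in the part that stayed. Gata4, a zinc finger factor of heart and endoderm, kept 59.2% of its gene body in 3 pieces and 0% of its gene end and flank. Nkx2-3 was the opposite, with 75.6% of its flank and 0% of both gene parts. Tlx1, a homeobox gene of the spleen, kept 95.6% of its body, 87.4% of its flank and 50% of its gene ends, with a gap of 2.47 kb at 1 end. Nr2f1, Nr2e1 and Pou3f3, factors of the nervous system, also kept 50% of their gene ends, in domains covered to 79.9, 92.1 and 80.1%. At Hand2 and Barhl2 all bases of gene end and body were covered, and the lost bases lay in the flank. Of 171 domains with gene ends and 20 to 80% cover, 21 kept no gene-end base and 66 kept 80% or more of them.

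**Figure D4:**
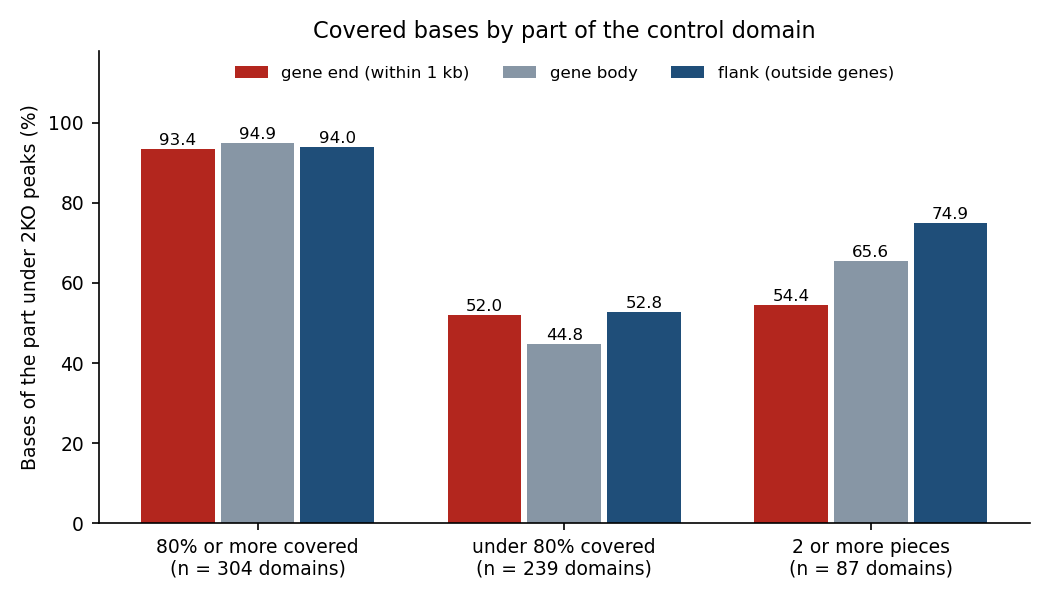
Bars give the percentage of bases under 2KO peaks at gene ends (within 1 kb), in gene bodies and in flanks outside genes, pooled over control domains covered to 80% or more, to under 80%, and with 2 or more 2KO pieces. The 3 parts lie between 93.4 and 94.9% in the first set, and in the last set gene ends stand at 54.4% and flanks at 74.9%.

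By gene family, 229 domains held an end of a gene of 38 lists, with a median cover of 86.7% (81.8 to 90.5), beside 86.1% for the other 202 domains at gene ends. Domains could count in several lists. Cover of 80% or more was found in 56.0% of all met domains and in 57.3% of those at gene ends, and family counts near these shares do not set a family apart. Likewise 66.9% of all wide domains and 78.8% of those at gene ends met a 2KO peak. Among transcription factor families, all 6 domains of POU genes, factors of neurons, reached 80% (median 96.2%), led by Pou3f3 (45.1 kb, 80.1%), Pou3f2 (28.7 kb, 93.9%) and Pou4f2 (25.1 kb, 100%). LIM homeobox genes, which specify neuron types, had 9 of 11 wide domains met and 7 of the 9 at 80% or more (median 94.6%), with Isl1, Lhx4 and Lhx6 at 92.1, 95.8 and 88.8%. Of 18 wide forkhead domains 16 were met and 10 reached 80% (median 90.1%), among them Foxd2 with Foxe3 (89.1%). Of 12 wide Nkx domains 11 were met and 7 reached 80% (median 88.1%), among them Nkx2-1 of lung and thyroid (98.1%) and Nkx6-1 of the pancreas and ventral spinal cord (88.1%).

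All 25 wide domains of bHLH genes met a 2KO peak, beside 78.8% of all wide domains at gene ends, and 16 were covered to 80% or more (median 86.9%). Olig2, of oligodendrocytes and motor neurons, had 86.9% of 33.6 kb covered, and Neurod2 70.5% of 28.6 kb. T-box genes, of limb, heart and brain, had a median of 84.5% over the 11 of 14 wide domains that were met, with Tbx15 at 80.2%, Tbx18 at 73.0% and Tbr1 at 68.2%. Lower medians were found for Zic genes (58.6% over 3 domains) and Dlx and Msx genes of face and limb (56.3% over 5). The same held for Gata genes (52.7% over 3 met of 4 wide domains) and Hox and Evx genes (30.8% over 5 met of 7). Gata6 (37.4%) and Gata2 (94.6%) lay on either side of Gata4. The 49 met domains, of 55 wide ones, of other homeobox genes covered the whole range, from Prrx1 to 100%, with a median of 89.3%.

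Among signalling genes, the ligands and antagonists lay on narrower domains. Of 4 wide domains of Hedgehog genes 3 were met. These 3, at the ligand genes, were covered to over 90%, with Ihh, a ligand of cartilage growth, at 99.5% of 16.9 kb and Dhh, a ligand of testis and nerve sheath, at 90.5% of 8.64 kb. Of 6 wide domains of Fgf genes 5 were met. All 5, at ligands including Fgf5 (80.5%), which ends hair growth, Fgf8 (86.6%) and Fgf4 (100%), reached 80%. Of 8 wide Wnt pathway domains 5 were met. Among these the ligand Wnt1 stood at 99.8%, and the antagonist Dkk1 and the receptor Lgr5 at 73.0 and 72.4%. Of 5 wide domains of Bmp and Tgf-beta genes 3 were met. They reached at most 72.4%, at Gdf7, with the ligand Gdf6 at 69.7% and the Bmp-binding protein gene Bmper at 63.9%. Axon guidance genes, with 7 of 9 wide domains met, ran from Ntn1 and Ntng2 (24.7%) to Epha10 (100%). Potassium channel genes had a median of 90.1% over 8 met domains of 12 wide ones, with Kcnk13 at 93.2% and Kcnc4 at 30.4%. Sodium, calcium and HCN channel genes had 46.2% over 4 of 7. Neurotransmitter receptor genes, such as the kainate receptor gene Grik3 (94.3% of 21.0 kb), reached 80% in all 5 met domains, of 6 wide ones. These families are small and were not tested against each other.

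**Figure D5:**
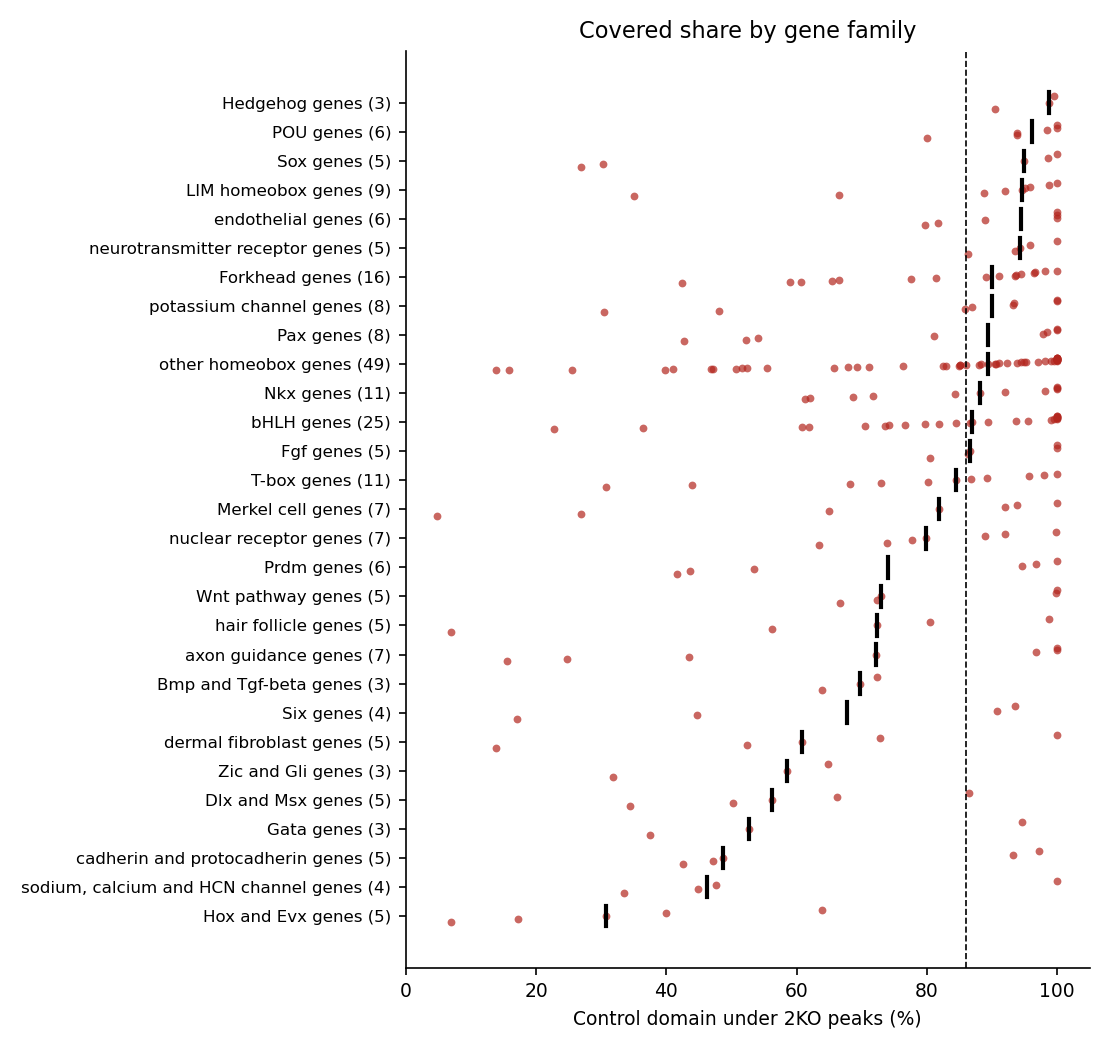
Points give the percentage of a control domain under 2KO peaks for each gene family with at least 3 domains (number in brackets), ticks the family median and the dashed line the median of all 543 domains (86.1%). Hedgehog, POU, Sox and LIM homeobox genes stand at the top and Hox and Evx genes at the bottom, with wide scatter in most families.

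For skin lineages, the lists of basal epidermal genes (20 in the table, among them Krt5, Krt14 and Trp63) and of epidermal differentiation genes (53) had 0 genes on wide domains of either kind, so the domains give no direct check of the sorted cell type. Genes of Merkel cells, the touch cells of the epidermis, lay on 7 wide domains, all of them met, with cover of 4.82% at Krt8 and Krt18, 26.9% at Sox2, 64.9% at Insm1, 81.8% at Atoh1, 92.1% at Isl1, 93.8% at Pou4f3 and 99.9% at Gfi1. At Sox2 the pieces of 6.14 and 3.70 kb lay on either side of the gene: counted from the left edge of the domain, they ended at 9.90 kb and began again at 21.3 kb, and the gene stood from 12.1 to 14.6 kb. In the Krt8 and Krt18 domain, counted in the same way, the 1 piece ran from 4.90 to 7.28 kb. It covered the end of Krt8 at 7.21 kb, whereas Krt18, from 31.1 to 34.9 kb, lay outside it. Of 9 wide domains at hair follicle genes, 5 were met (median 72.4%). Markers of dermal fibroblasts were at 6 wide domains, of which 5 were met (median 60.8%). These were En1 at 52.3%, Twist1 at 60.8%, Prrx1 at 13.8%, Pdgfra at 72.7% and Twist2 at 100%. For endothelium all 6 wide domains were met (median 94.5%, with Sox17 at 100%, Tal1 at 79.7% and Flt1 at 88.9%). Melanocyte markers had 1 wide domain, which was met (Pax3), and immune markers 2, of which 1 was met (Ikzf1, 67.3%). Whether such cells were in the sorts was not tested.

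The met domains differed from the 269 wide domains without a 2KO peak in features that the overlap did not use. They lay at a gene end in 431 of 543 cases (79.4%, 75.8 to 82.6), against 116 of 269 unmet domains (43.1%, 37.3 to 49.1). They lay inside a gene away from its ends in 8.10% and off genes in 12.5%, against 20.1 and 36.8% of unmet domains. Met domains were somewhat wider, with a median of 13.3 kb (12.4 to 14.4) against 11.5 kb (10.7 to 12.0), but the difference at gene ends was present in each class of width: 73.5% of met and 53.7% of unmet domains from 8 to 10 kb, 75.6 and 34.0% from 10 to 15 kb, 77.6 and 37.8% from 15 to 20 kb, 87.5 and 45.5% from 20 to 30 kb, and 93.3 and 50.0% from 30 kb on. Those off genes were nearer to one, at a median of 28.3 kb (23.3 to 38.8) for met and 101.2 kb (66.0 to 135.6) for unmet domains. Promoter CpG counts had medians with overlapping intervals, 19 (17 to 21) at starts in met and 21 (17 to 25) in unmet domains. Their upper quartiles lay further apart, at 27.25 in met and 33.5 in unmet domains, and this difference was not tested. Once met, place made less difference, with a median cover of 86.5% at gene ends, 78.7% inside genes and 87.2% off genes.

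The domains off genes were led by a 38.2 kb domain near Tmem33 (chromosome 5, 67201241 to 67239473), covered to 98.6%, and by the Mir9-2 domain, also 38.2 kb, near Mef2c (chromosome 13, 83710630 to 83748803), covered to 95.9%. Inside genes, the widest domain lay in Zdbf2, an imprinted gene, with 74.0% of 40.3 kb covered (chromosome 1, 63241728 to 63281981).

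On both sides of the width minimum lay domains of nearly the same width. The narrowest domains taken measured 8039 bp inside Apc2 (100% covered), 8039 bp near Dbx1 (54.5%) and 8043 bp near Kcnj1 (89.5%), and the widest met control peaks left out 7995 bp at Vstm2b (97.7%), 7984 bp at Ikzf3 (88.7%) and 7970 bp at Cyp24a1 and Pfdn4 (100%). The domains sharing the fewest bases were the one near Barhl2 with 1120 bp, one at Brsk2 with 1673 bp and one at Megf11 with 1825 bp. The wide domains that came closest without meeting a 2KO peak lay 1017 bp from one at Grb10, 2929 bp at 6430628N08Rik and 3532 bp at Cdh22. Such near cases were rare, since 4 of 269 unmet domains had a 2KO peak within 5 kb and the median distance was 359.4 kb.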

How the data were processed

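Per the submitters' processing notes, the tools were Bowtie2 2.3.3.1 and SAMtools 1.9 and the build was mm10. For each genotype the authors deposited 1 H3K27me3 peak list, whose values are positions only (chromosome, start and end). Which caller and threshold made the peaks, whether input was used and whether the 2 libraries were pooled is not given in the sources used here. Any of these would change the number, width and breaks of peaks. Columns of per-sample values from other series numbered 0.

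Start positions, 0-based in the lists, are given here as 1-based. Cover is the percentage of a domain's bases under 2KO peaks, and a piece is 1 row of the 2KO list that shares at least 1 bp with the domain. Each base was put at a gene end (within 1 kb of either end of a protein-coding gene), in a gene body or in the flank, with 21631 genes of a RefSeq table on GRCm38.p6, the same build as mm10. That table has no exons or UTRs. A part counted in comparisons within a domain from 500 bp on. Gene starts, strands and promoter sequences came from a RefSeq promoter table that holds 17274 of these genes (79.9%) and 390 of the 529 genes with an end in the domains (73.7%). Genes missing there are in no count of starts.

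Shares have 95% Wilson intervals and medians 95% order-statistic intervals. Calculations used Python 3.11.15 with numpy 2.4.6, pandas 2.3.3 and scipy 1.17.1, and figures matplotlib 3.10.9. The code was tested on 812 simulated domains, and all were recovered. Named were the 10 domains that were widest, had most pieces, were the widest under 20% or at 80% or more cover, or reached farthest outside, up to 3 genes per list at the widest domains, and those at the thresholds. Other genes, and all miRNAs, were named after their values were seen. The domains, gene lists and alternatives were chosen with earlier results of these data known, and the counts of starts in gaps were added after the data were seen. The libraries of input and of Eed cKO cells were not analysed here. Some genes that this rule names are not reported here.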

Additional observations from a re-analysis of the deposited data

How the results depend on the processing

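No paired analysis was possible because the deposited lists, 1 per genotype, carry no replicates, so leaving out a replicate was not possible either. Of 117 alternative values for 18 results, 91 stayed within the 95% interval of the main value (for counts, within 1.5 times it) and 26 did not. For the pooled shares of the 3 parts, this interval treated the percentage of bases as a share of domains and is only a rough range. The alternatives use the same lists, so a value within the interval is no separate check. With a width minimum of 5000 bp, 1030 domains were met (60.1%), the median cover was 91.4%, 8.83% had 2 or more pieces, and gene ends and bodies were covered to 79.7 and 75.1%. With 12000 bp, 314 were met (72.9%), with a median of 81.6% and 26.1% in 2 or more pieces. With 20000 bp, 156 were met (82.1%), with 41.7% in pieces and gene ends and bodies at 64.4 and 62.5%. Flanks then stood at 75.5%, so the parts lay further apart in these wider domains, which include those at Hox genes. Merging peaks within 3 kb left 5.42% in 2 or more pieces, against 16.0% as deposited. With 2KO peaks of 5000 bp or more only, 59.7% of wide domains were met, with a median of 89.4% and 12.0% in pieces. A 5 kb window at gene ends put gene bodies at 63.6%. Gene starts covered were 90.2% within 1 kb and 46.9% in domains under 80% cover, an alternative chosen after seeing the data. In the reverse comparison a minimum of 12000 bp gave 99.6% met, a median of 93.5% and 10.5% in pieces, and merging within 3 kb gave 3.87% in pieces. The causes were not tested. The share of gaps that held a gene start stayed between 34.2 and 37.8% under its alternatives, which were added after seeing the data. Depth limits every statement on missing calls, since the lists give no signal below their threshold.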

Other observations

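By chromosome, the share of wide domains that met a 2KO peak ran from 36.4% on chromosome 15 (16 of 44, 95% Wilson interval 23.8 to 51.1) to 84.4% on chromosome 10 (27 of 32, 68.2 to 93.1). On chromosome X, 12 of 19 wide domains were met, with a median cover of 57.1%, against 86.1% over all met domains. Domains on 1 chromosome include neighbours and clusters, and no test was made.

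Of gene ends on the met domains whose strand the promoter table gives, 250 of 339 5′ ends (73.7%, 68.8 to 78.1) and 150 of 195 3′ ends (76.9%, 70.5 to 82.3) lay under a 2KO peak, and these intervals overlap.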
